A study of Mus musculus with 12 samples.

Results

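Nfat5 and 6 of its neighbours on mouse chromosome 8 were followed in blood-forming cells of mice with and without a deletion of Nfat5. The genes were Cyb5b and Terf2 on one side of Nfat5 and Nqo1, Nob1, Wwp2 and Psmd7 on the other. They were chosen by name for their place in the chromosomal order, with earlier results of these data known. They made 7 of the 19494 genes with a named probe set, and each was read by 1 probe set. All 7 stood above the lowest 25% of mean signals, which was the condition for testing, so that all 7 were among the 14620 genes tested. The KO animals were Nfat5 fl/fl Vav-Cre mice and the WT animals Nfat5 +/+ Vav-Cre mice, so both genotypes carried the Cre and the KO differed by loxP-flanked copies of Nfat5. Vav-Cre acts throughout the haematopoietic system from early in development, and not in stem cells alone. The animals were untreated, and no age is stated in the labels used here. From their bone marrow the LSK fraction (Lineage-, Sca-1+, Kit+) was sorted. Within it, CD48- CD150+ cells were taken as haematopoietic stem cells (HSC) and CD48+ CD150- cells as multipotent progenitors (MPP). Each of 3 KO mice (numbered 2, 11 and 70 by the labels) and 3 WT mice (3, 12 and 64) gave 1 HSC and 1 MPP array. The 12 arrays thus formed 4 groups of 3, and precision is limited by that number.

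NFAT5, also known as TonEBP, is a transcription factor of the Rel family that is activated by high salt outside the cell and turns on genes for the uptake and synthesis of organic osmolytes and for chaperones. It differs from the other NFAT proteins in that it is not controlled by calcineurin. Its neighbours act elsewhere in the cell. Cyb5b encodes the cytochrome b5 of the mitochondrial outer membrane, a haem protein that passes electrons from a reductase to acceptors such as the mARC enzymes. Terf2 encodes TRF2, the shelterin subunit that keeps chromosome ends from being treated as breaks. Nqo1 encodes a quinone reductase that is a classic target of the antioxidant factor NRF2, Nob1 the endonuclease that makes the last cut of the small-subunit ribosomal RNA, Wwp2 a ubiquitin ligase of the NEDD4 family, and Psmd7 a structural subunit of the proteasome lid.

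Values are log2 signals after normalization by the authors, so a difference of 1 is a doubling of the signal. Array medians lay between 5.81 and 5.91. The HSC array of KO mouse 2 departed most from its group, with an SD of its deviations of 0.438 against 0.276 to 0.378 on the other arrays. The sorted populations differed in the transcripts of CD150 and CD48. Slamf1, which encodes CD150, was 2.36 higher in HSC than in MPP, and Cd48 stood at -3.0 (adjusted p = 3.6e-04 and 1.6e-05 by limma). Flt3, a progenitor marker outside the gate, stood at -3.35 (adjusted p = 5.0e-05 by limma). Of the other stem cell markers, Mecom was 1.49 higher in HSC (adjusted p = 0.00489 by limma). Procr, Hoxb5, Fgd5 and Ctnnal1 were higher without passing (adjusted p of 0.0699 to 0.278 by limma). Markers of mature neutrophils varied within every group, with array means of 5.63 to 7.55 in KO HSC, 5.82 to 7.82 in WT HSC, 5.82 to 6.67 in KO MPP and 4.84 to 6.99 in WT MPP.

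The windows from 250 bases before to 50 bases after the start of transcription are shown for the 2 genes on which the results turn. They are the RefSeq sequences of the plus strand of GRCm38.p6, at chr8:107293220-107293519 for Nfat5 and at chr8:107150411-107150710 for Cyb5b, and capitals mark a match to TGGAAA.
Nfat5: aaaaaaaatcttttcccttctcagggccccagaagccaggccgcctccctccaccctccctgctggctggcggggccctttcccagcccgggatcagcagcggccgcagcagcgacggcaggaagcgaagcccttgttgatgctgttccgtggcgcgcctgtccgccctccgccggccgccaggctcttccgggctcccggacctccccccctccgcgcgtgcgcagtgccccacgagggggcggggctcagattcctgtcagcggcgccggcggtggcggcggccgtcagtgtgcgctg
Cyb5b: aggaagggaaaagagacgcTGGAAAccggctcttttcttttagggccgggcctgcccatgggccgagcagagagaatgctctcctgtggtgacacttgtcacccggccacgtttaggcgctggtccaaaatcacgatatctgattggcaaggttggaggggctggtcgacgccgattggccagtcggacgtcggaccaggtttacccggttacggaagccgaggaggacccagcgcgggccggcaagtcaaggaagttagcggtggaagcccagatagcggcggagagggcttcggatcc
The letters TGGAAA are the core of the site that NFAT5 binds, and TGACNNNGC is the core of the antioxidant response element. Only these cores were searched, so a match does not show a full site or binding. Both cores were searched on both strands in the windows of the 6 members with an entry, which are all but Psmd7. TGGAAA stood once in the Cyb5b window, with its first base at position -231 from the start site on the strand shown, and in no other of these windows. It stood in 21.4% of all 32851 promoter windows of this length. TGACNNNGC stood in the Wwp2 window only, at 2 places that do not overlap, and in 12.4% of all windows. The Nfat5 window, with a GC content of 72.0%, held neither motif.

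Nfat5 itself read lower on every KO array than on any WT array within either population. In HSC the KO arrays read 7.85 (mouse 2), 7.34 (mouse 11) and 7.89 (mouse 70), and the WT arrays 8.54 (mouse 3), 8.27 (mouse 12) and 8.99 (mouse 64). In MPP the KO arrays read 6.99, 7.45 and 7.04 for the same mice and the WT arrays 7.82, 8.28 and 7.98. Within each population the genotypes thus did not overlap. Across populations they did, as the KO HSC of mice 2 and 70 read above the lowest WT MPP. The log2 difference was -0.91 in HSC (95% interval -1.43 to -0.40) and -0.87 in MPP (-1.38 to -0.35), which left 53.1% and 54.8% of the WT signal. In bulk RNA of sorted cells, fewer cells with the transcript and less of it per cell cannot be told apart. Averaged over both arrays of a mouse, the KO mice read 7.42, 7.39 and 7.46 and the WT mice 8.18, 8.28 and 8.49. The SD of these mouse means was 0.036 in KO, against 0.31 in KO HSC and 0.25 in KO MPP taken alone, as mouse 11 was the lowest KO animal in HSC and the highest in MPP.

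No gene passed at an adjusted p under 0.05 for KO against WT by limma (0% of those tested in HSC, in MPP and over mouse means). At an unadjusted p under 0.05 stood 919 genes (6.29%), 466 (3.19%) and 650 (4.45%). Nfat5 had an adjusted p of 0.566 in HSC, 0.99991 in MPP and 0.897 over mouse means by limma. The first 2 were 0.474 to 0.998 and 0.934 to 0.999994 under the other settings. By unadjusted p it stood at place 66 of 14620 in HSC, at place 27 in MPP and at place 1 over mouse means. Exact permutation of the samples (two-sided) gave p = 0.1 each time, the smallest that 3 against 3 allows. Values of KO and WT were fully separate for 8.87% of all genes in HSC (5.15% higher, 3.72% lower) and for 9.49% in MPP (4.82% higher, 4.66% lower). Separation in both populations and in the same direction was found for 57 of 14620 genes, or 0.39%, of which 25 (0.171%) were lower in KO. The labels and tables used here do not say which part of the transcript the Nfat5 probe set reads, so its signal in KO cells does not measure remaining functional transcript.

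Cyb5b, the nearest gene on the other side, read higher on every KO array than on any WT array, again within each population. In HSC the KO arrays read 7.17 (mouse 2), 6.87 (mouse 11) and 6.58 (mouse 70), and the WT arrays 5.92 (mouse 3), 5.60 (mouse 12) and 5.62 (mouse 64). In MPP the KO arrays read 7.04, 6.62 and 6.89 and the WT arrays 6.57, 6.35 and 6.41. The gap between the nearest KO and WT arrays was wide in HSC and narrow in MPP, where KO mouse 11 and WT mouse 3 lay next to each other. Its log2 difference was 1.16 in HSC (95% interval 0.76 to 1.56), a 2.23-fold higher signal. In MPP it was 0.40 (-0.00011 to 0.81), a 1.32-fold higher signal.

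Cyb5b did not pass the test over all genes, with an adjusted p of 0.295 in HSC (0.185 to 0.848 under the other settings) and of 0.99991 in MPP by limma. Its unadjusted p of 6.1e-05 in HSC was at place 3 of 14620, and its p of 0.0501 in MPP at place 468. Over mouse means it stood at 0.78 (95% interval 0.42 to 1.14), with 7.10, 6.75 and 6.74 in the KO mice and 6.25, 5.98 and 6.02 in the WT mice. It was 1 of 32 genes (0.219% of those tested) that were higher in KO without overlap in HSC and in MPP. Without KO mouse 2, whose HSC array gave the highest value, the HSC difference was 1.01, and it lay between 1.01 and 1.30 when any mouse was left out. Markers of T and NK cells also separated the HSC groups, with array means of 5.02 to 5.16 in KO and 4.81 to 4.92 in WT HSC. Of these 8 markers 4 lay in both groups under 4.96, the value that bounds the lowest 25% of genes. Nkg7 had the widest gap (6.68 in KO, 5.94 in WT HSC) and read higher in MPP (8.32 in KO, 8.66 in WT). Cd3d and Ncr1 were lower in KO HSC. Among progenitor markers, Flt3 (5.97 against 5.13) and Cd34 (9.71 against 9.08) were higher in KO than in WT HSC, and Cd48 was lower (5.52 against 5.74). Array means of these 3 markers overlapped, at 6.69 to 7.59 in KO and 6.53 to 6.85 in WT HSC. The part of either marker set in the differences of Cyb5b and of the other genes in HSC was not tested.

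**Figure D1:**
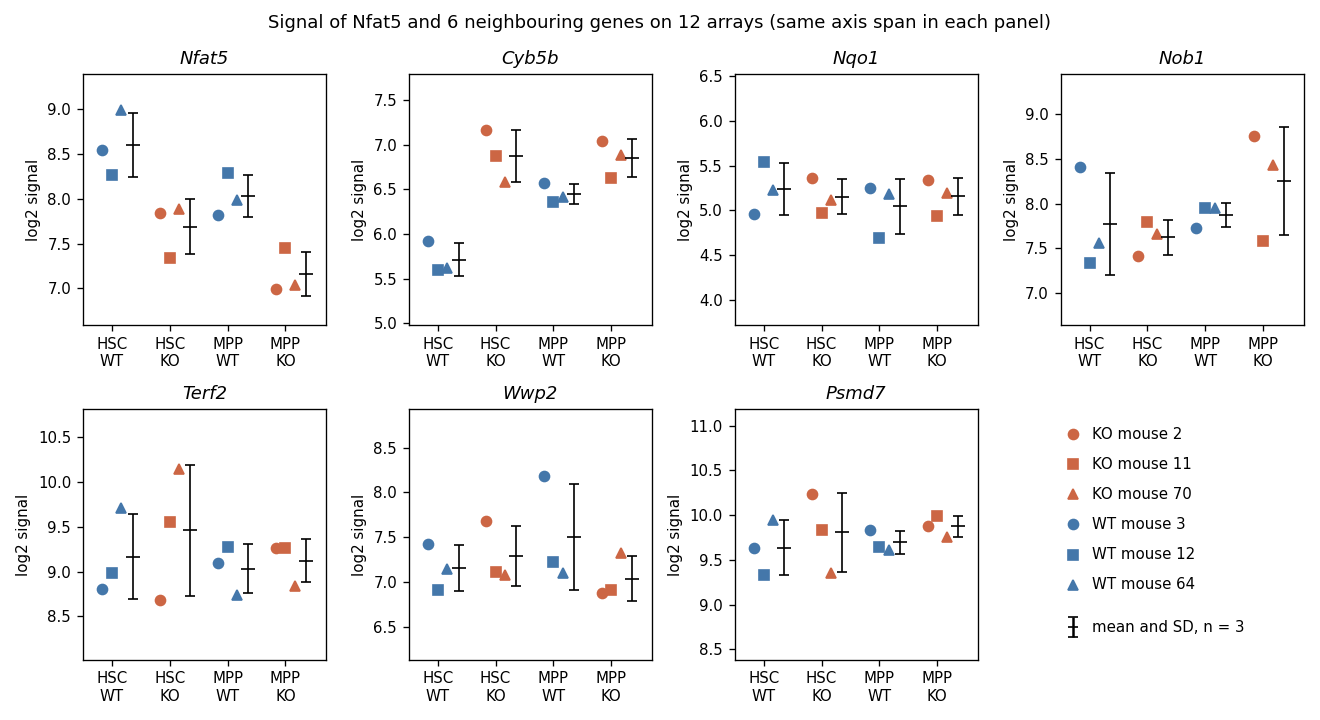
Log2 signal (y axis, the same span of values in every panel) of each gene on the 12 arrays by group (x axis); each point is 1 array, the marker gives the mouse, and the black bar is the group mean with its SD (n = 3). The KO points of Nfat5 lie below and those of Cyb5b above the WT points of the same population, while the KO and WT points of the other 5 genes overlap.

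The genotype difference of Cyb5b was compared between the populations as an interaction, in which a positive value means a larger KO to WT difference in HSC. It stood at 0.76 (95% interval 0.19 to 1.33, unadjusted p = 0.0140), but had an adjusted p of 0.99962 by limma, in a comparison where no gene passed (0%) and 658 (4.5%) had an unadjusted p under 0.05. The groups behind it were WT HSC at 5.71 ± 0.18, WT MPP at 6.45 ± 0.11, KO MPP at 6.85 ± 0.21 and KO HSC at 6.87 ± 0.29 (SD, n = 3). WT HSC lay apart from WT MPP and WT MPP from KO MPP, while the KO groups overlapped. Within mice, Cyb5b read lower in HSC than in MPP by 0.65, 0.75 and 0.80 in WT mice 3, 12 and 64 and by 0.30 in KO mouse 70, and higher in HSC by 0.13 and 0.25 in KO mice 2 and 11. The order of the populations was therefore the same in all WT mice and mixed in KO mice. With the mouse as a block the interaction had the same size and an adjusted p of 0.948.

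Nfat5 gave an interaction of -0.04 (95% interval -0.77 to 0.68, adjusted p = 0.99962 by limma), so the data allow a difference between populations nearly as large as the genotype difference itself. Its groups ran from WT HSC at 8.60 ± 0.36 over WT MPP at 8.03 ± 0.24 and KO HSC at 7.69 ± 0.31 to KO MPP at 7.16 ± 0.25 (SD, n = 3), and each overlapped with the next. Over both genotypes Nfat5 stood 0.55 higher in HSC than in MPP (95% interval 0.19 to 0.92, adjusted p = 0.0927 by limma). HSC read higher by 0.73 and 1.01 in WT mice 3 and 64 and by 0.86 and 0.85 in KO mice 2 and 70. In WT mouse 12 and KO mouse 11 HSC read below MPP, at -0.012 and -0.11. Cyb5b stood at -0.35 in HSC against MPP over both genotypes (adjusted p = 0.164 by limma), a mean of unlike WT and KO values.

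None of the 7 genes passed for HSC against MPP, where 4.85% of genes (709) passed by limma. That count was 463 without mouse 3, 424 without mouse 12 and 380 without mouse 64. Beside Nfat5 and Cyb5b, the genes lay between -0.37 for Nob1 (adjusted p = 0.398) and 0.24 for Terf2 (adjusted p = 0.630). The intervals of Nqo1 (-0.23 to 0.42), Psmd7 (-0.41 to 0.29) and Wwp2 (-0.50 to 0.41) spanned 0.

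**Figure D2:**
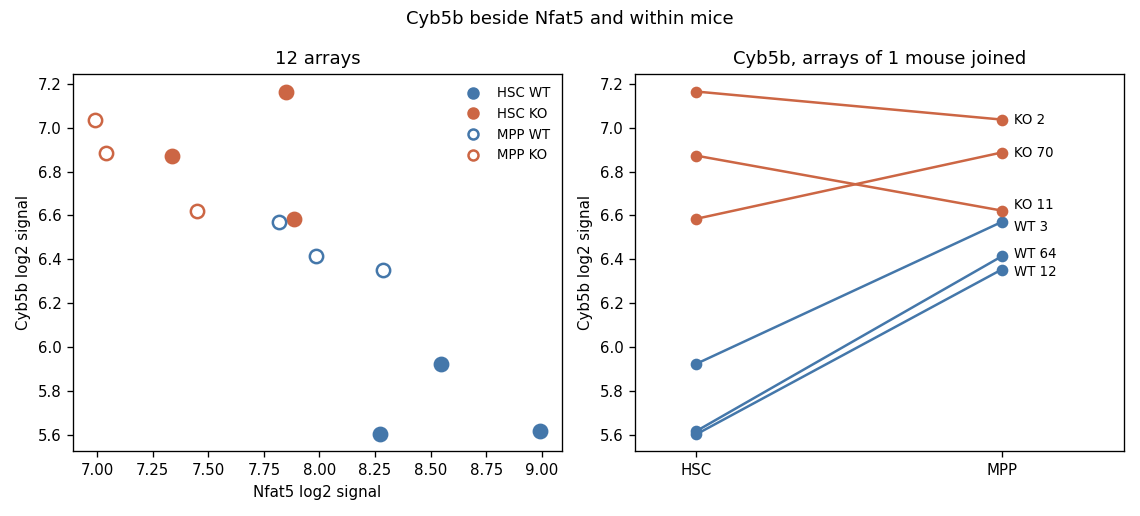
Left, Cyb5b against Nfat5 log2 signal on the 12 arrays (filled points HSC, open points MPP, by genotype); right, Cyb5b log2 signal in HSC and MPP with the arrays of 1 mouse joined by a line. WT HSC hold the lowest Cyb5b values, 5.60 to 5.92, and the lines of the 3 WT mice all run upward to MPP while those of the KO mice run both ways.

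The other 5 genes did not separate the genotypes in either population, with exact permutation p of 0.2 to 0.9. In HSC 2 of the 7 genes had values that did not overlap, Nfat5 and Cyb5b, beside 8.87% of all genes, and in MPP the same 2 genes, beside 9.49%. Terf2, the gene of telomere protection on the far side of Cyb5b, read 8.69, 9.56 and 10.14 in KO HSC (mice 2, 11 and 70) and 8.81, 8.99 and 9.71 in WT HSC (mice 3, 12 and 64). It read 9.26, 9.26 and 8.84 in KO MPP and 9.09, 9.28 and 8.73 in WT MPP. KO HSC held both the lowest and the highest of these 12 values, so the groups overlapped. Its differences of 0.30 in HSC (95% interval -0.48 to 1.07) and 0.09 in MPP (-0.69 to 0.86) were smaller than their spread, and the HSC value was -0.04 without mouse 70.

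Nqo1, the nearest gene on the opposite side, lay close to the weakest signals that were tested. It read 5.36, 4.97 and 5.12 in KO HSC, 4.97, 5.54 and 5.22 in WT HSC, 5.34, 4.94 and 5.19 in KO MPP and 5.26, 4.70 and 5.19 in WT MPP. All 4 groups overlapped, with group means from 5.05 to 5.24. Its differences were -0.09 in HSC (95% interval -0.56 to 0.37) and 0.11 in MPP (-0.35 to 0.57).

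Nob1 read 7.41, 7.79 and 7.66 in KO HSC and 8.41, 7.33 and 7.56 in WT HSC, where WT mouse 3 stood above all others. In MPP it read 8.75, 7.58 and 8.43 in KO and 7.72, 7.95 and 7.95 in WT, with mice 2 and 70 above and mouse 11 below every WT array. The differences of -0.15 in HSC (95% interval -0.86 to 0.56) and 0.38 in MPP (-0.33 to 1.09) had opposite signs, and the HSC value was 0.17 without mouse 3. The interaction of -0.53 (-1.54 to 0.48) had an adjusted p of 0.99962 by limma.

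Wwp2 read 7.68, 7.11 and 7.08 in KO HSC and 7.42, 6.91 and 7.15 in WT HSC. In MPP it read 6.88, 6.91 and 7.32 in KO and 8.18, 7.23 and 7.10 in WT, where the high value of WT mouse 3 stood apart. Its differences were 0.13 in HSC (95% interval -0.52 to 0.78) and -0.46 in MPP (-1.11 to 0.18), the latter -0.12 without mouse 3. Psmd7 read 10.23, 9.84 and 9.35 in KO HSC, 9.63, 9.33 and 9.94 in WT HSC, 9.88, 9.99 and 9.76 in KO MPP and 9.84, 9.64 and 9.61 in WT MPP. In MPP only the lowest KO array fell below the highest WT array. Its differences were nearly equal, 0.17 in HSC (-0.33 to 0.67) and 0.18 in MPP (-0.32 to 0.68). For these 5 genes the intervals allow genotype differences of up to 0.57 (Nqo1), 0.68 (Psmd7) and about 1.1 (Nob1, Terf2 and Wwp2) in size on the log2 scale.

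The wider neighbourhood was taken as the 20 protein-coding genes on each side of Nfat5 in the RefSeq order of GRCm38.p6. Of these 40 genes 37 had a probe set and 32 were tested, and none passed for KO against WT. In HSC 16 lay above and 16 below 0, with a median of -0.01 against 0.02 over all genes. In MPP 19 lay above and 13 below 0, with a median of 0.03 against 0.0024. Of the 32 genes, 6 had separate KO and WT values in HSC, where 8.87% of all genes did, with Cyb5b, Pmfbp1 and Txnl4b higher and Slc7a6os, Zfp821 and Atxn1l lower in KO. In MPP 2 had separate values, Cyb5b (higher) and Ist1 (lower), where 9.49% of all genes did, all but Cyb5b and Zfp821 named here after their values were seen. Cyb5b had the highest difference of the neighbourhood in both populations.

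The lowest difference in HSC was that of Zfp821, which encodes a zinc finger protein and lies 13 places beyond Nfat5 on the side of Nqo1. It read 4.87, 5.59 and 5.30 in KO HSC and 7.67, 6.72 and 6.31 in WT HSC. The groups did not overlap, and the difference of -1.65 (SE 0.37) had an adjusted p of 0.471 by limma. In MPP it read 6.13, 6.85 and 7.10 in KO and 6.71, 7.50 and 7.08 in WT, which overlapped, with a difference of -0.41 (SE 0.37). The KO HSC signal lay near 4.96, the bound of the lowest 25% of genes, where differences are compressed. In MPP the lowest difference was that of Prmt7, an arginine methyltransferase, at -0.69 (SE 0.53), which was -1.31 without mouse 11 and -0.30 without mouse 2. Between Cyb5b and Zfp821 the genes with a value in HSC, apart from Nfat5, lay between -0.29 (Zfhx3) and 0.45 (Txnl4b). On the far side of Cyb5b they ended with Slc7a6, an amino acid transporter gene 20 places away, at 0.68.

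**Figure D3:**
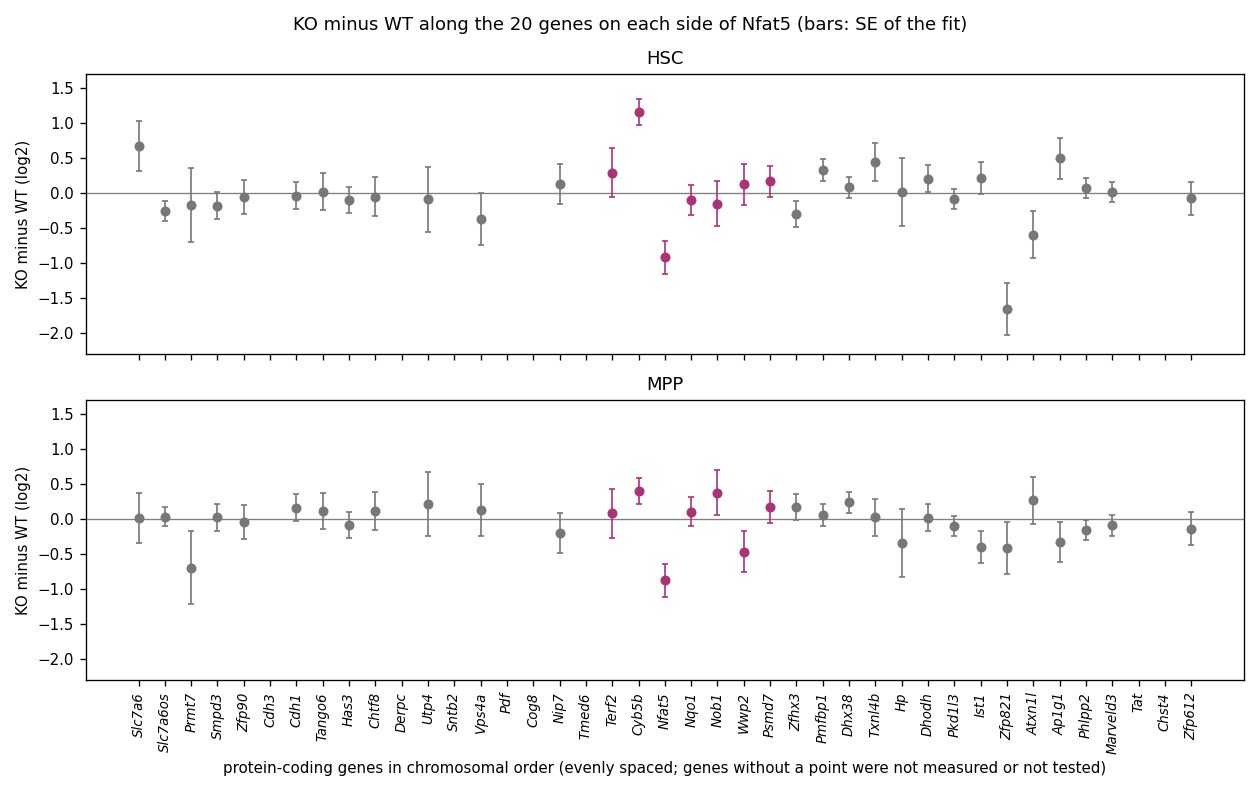
KO minus WT log2 difference (y axis) in HSC (top) and MPP (bottom) for the genes around Nfat5 in chromosomal order (x axis, evenly spaced), with the 7 genes of interest in purple and bars for the SE of the fit. Cyb5b at 1.16, Nfat5 at -0.91 and Zfp821 at -1.65 stand away from 0 in HSC, and Nfat5 at -0.87 in MPP.

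The functional relatives of each gene were read next, from 8 lists. None of their members passed for KO against WT in HSC or in MPP. Among the other NFAT genes, whose products depend on calcineurin, the 4 measured members had a median of -0.06 in HSC, from -0.16 (Nfatc2) to 0.15 (Nfatc1). In MPP they ran from -1.0 (Nfatc3, SE 0.29) to 0.70 (Nfatc1, SE 0.33, or 0.38 without mouse 2). Both of these genes had values without overlap between genotypes, as did 9.49% of all genes in MPP. Nfatc3 read 7.58, 8.44 and 7.84 in KO MPP and 8.69, 9.09 and 9.09 in WT MPP, with an unadjusted p of 0.00584 and an adjusted p of 0.99991 by limma. In HSC it read 8.51, 8.34 and 9.23 in KO and 8.40, 9.10 and 8.77 in WT.

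The osmoadaptive targets of NFAT5 had medians of -0.13 in HSC and -0.20 in MPP over 8 tested of 10 listed genes. The other listed genes, Akr1b3 and Slc5a3, were not measured. Below 0 lay 5 of the 8 in HSC, where 46.6% of all genes did, and 6 of the 8 in MPP, where 49.5% did. The extremes in HSC were Slc38a2, an amino acid transporter, at -1.84 (SE 0.63, or -1.08 without mouse 2) and the chaperone gene Hspa1a at 0.41 (SE 0.16). In MPP they were S100a4, a calcium-binding protein, at -0.61 (SE 0.34, or -0.33 without mouse 12) and Hspa1b at 0.20 (SE 0.19). Values were separate for 3 of the 8 in HSC (Slc38a2 and S100a4 lower, Hspa1a higher), beside 8.87% of all genes, and for 1 in MPP (Slc6a12, lower), beside 9.49%. Slc38a2 read 6.65, 8.67 and 9.19 in KO HSC and 10.94, 9.60 and 9.49 in WT HSC, with mouse 2 far below the other KO arrays. S100a4 read 7.84, 6.94 and 7.01 in KO HSC and 8.77, 8.46 and 7.86 in WT HSC, a difference of -1.10 (SE 0.34) in which KO mouse 2 and WT mouse 64 nearly touched. Markers of mature neutrophils had a mean of 6.48 in KO and 7.03 in WT HSC, with array means that overlapped. The part of these markers in the S100a4 difference was not tested. Hspa1a read 6.70, 6.71 and 6.73 in KO HSC and 6.27, 6.17 and 6.45 in WT HSC. The KO arrays of Hspa1a were nearly equal and all above WT. Of the remaining genes, the taurine transporter gene Slc6a6 stood at 0.06 in HSC and -0.09 in MPP, the betaine transporter gene Slc6a12 at -0.21 and -0.22, the kinase gene Sgk1 at -0.06 and -0.19, and the chaperone gene Hspa4l at -0.30 and -0.46.

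The 5 tested genes for partners and relatives of cytochrome b5 had medians of 0.14 in HSC and 0.11 in MPP and ran from -0.35 (the reductase gene Cyb5r1) to 0.29 (Cyb5a) in HSC and from -0.26 (the reductase gene Cyb5r3) to 0.20 (Mtarc2, a mARC enzyme) in MPP. Cyb5a, the paralog whose product sits in the endoplasmic reticulum, read 9.08, 8.62 and 8.73 in KO HSC and 8.32, 8.58 and 8.66 in WT HSC, which overlapped. Its difference in HSC was 0.16 without mouse 2, that of Cyb5r1 -0.22 without mouse 64, and in MPP that of Cyb5r3 was -0.42 without mouse 2 and -0.15 without mouse 11.

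Of the NRF2 genes other than Nqo1, 8 of 9 lay above 0 in HSC, where 53.4% of all genes did. In MPP 3 of 9 did, beside 50.5% of all genes. Their medians were 0.15 and -0.09. The highest in HSC was Gclc, the catalytic subunit of the enzyme that starts glutathione synthesis, with 7.63, 7.92 and 7.93 in KO and 7.43, 7.21 and 7.25 in WT HSC. Its groups did not overlap, as was true of 8.87% of all genes in HSC. Its difference of 0.53 (SE 0.21) had an adjusted p of 0.790 by limma. In MPP the extremes were the cystine transporter Slc7a11 at 0.33 (SE 0.17) and Gclm, the other subunit of that enzyme, at -0.56 (SE 0.57). Values of Slc7a11 did not overlap in MPP, as was true of 9.49% of all genes. The WT means of Slc7a11 (4.87 in HSC, 4.88 in MPP) lay under 4.96, the mean signal below which genes were left out. Slc7a11 was thus tested only through its higher KO signal (5.15 in HSC, 5.22 in MPP), and differences of such weak signals are compressed. In HSC the lowest was the thioredoxin reductase Txnrd1 at -0.07 (SE 0.30).

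The partner lists of the remaining genes gave medians between -0.04 and 0.17 in HSC and between -0.03 and 0.10 in MPP. The list made for factors that mature the small ribosomal subunit with Nob1 also held Cinp, which is not an established factor of this kind. The extremes of this list were Cinp (0.72, SE 0.41) and Rrp12 (-0.26) in HSC. In MPP they were Pno1 (0.41), which binds Nob1, and the kinase Riok2 (-0.52). Without mouse 2 Cinp was 0.25, Riok2 -0.03 and Pno1 1.03, without mouse 11 they were 1.10, -0.86 and -0.04, and Rrp12 was -0.13 without mouse 64 or 70. Among shelterin genes they were Pot1b (1.60, SE 0.61) and Acd (-0.64, SE 0.41) in HSC and Acd (0.17) and Pot1a (-0.56) in MPP. Of these, Acd had separate values in HSC, lower in KO, where 8.87% of all genes were separate in either direction. Pot1b was 0.96 without mouse 3, Acd in HSC -0.41 without mouse 11, and Pot1a -0.07 without mouse 2 and -1.05 without mouse 11. Pot1b, which binds the single-stranded telomere end, read 8.85, 9.18 and 6.89 in KO HSC and 5.42, 7.31 and 7.38 in WT HSC, so that KO mouse 70 read below 2 WT arrays. The ligase genes of the Wwp2 family ran from Smurf2 (-0.51) to Smurf1 (0.66) in HSC and between the same genes, -0.36 and 0.28, in MPP. Smurf1 in HSC was 0.39 without mouse 3 and 1.07 without mouse 12. Genes of the proteasome lid ran from Psmd12 (-0.42) to Psmd13 (0.37) in HSC and from Psmd3 (-0.80, SE 0.37) to Psmd13 (0.44) in MPP. The genotypes did not overlap for Psmd3 in MPP, as was true of 9.49% of all genes. Psmd13 was 1.20 without mouse 3 and -0.17 without mouse 64 in HSC, and 0.25 without mouse 2 in MPP.

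**Figure D4:**
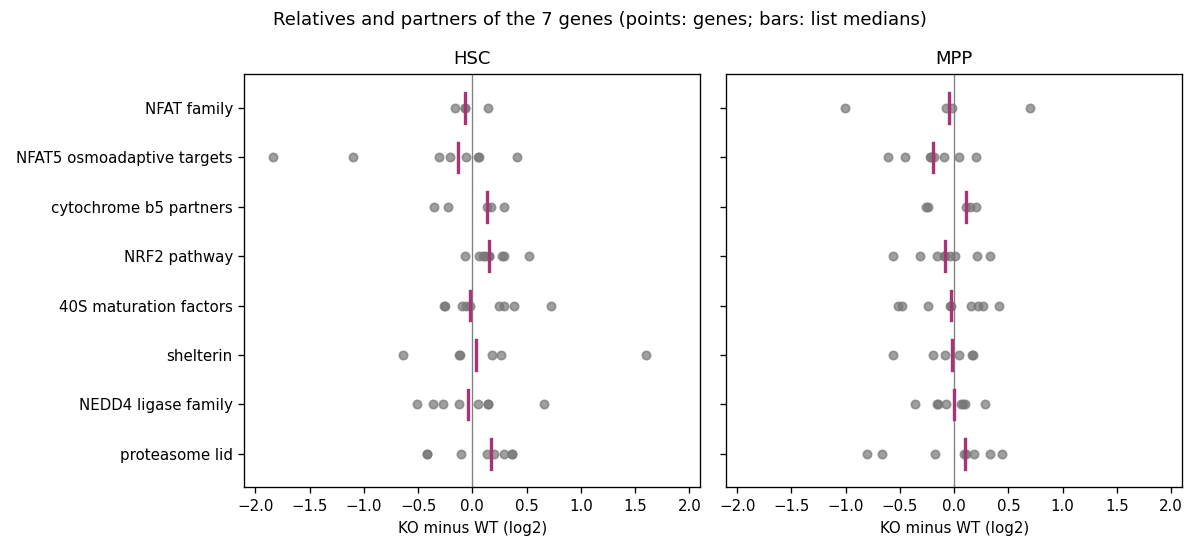
KO minus WT log2 difference (x axis) in HSC (left) and MPP (right) for the tested genes of 8 lists of relatives and partners (y axis); grey points are genes and purple bars list medians. The medians lie between -0.13 and 0.17 in HSC and between -0.20 and 0.11 in MPP, and the points farthest from 0 are Slc38a2 at -1.84 and Pot1b at 1.60 in HSC.

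For HSC against MPP, 4 of the 83 tested genes of these lists and the wider neighbourhood (4.82%, the 7 genes left out) passed by limma, a share like the 4.85% of all genes. They are named for having passed. Gclc fell by 0.78 in HSC (adjusted p = 0.0146), as did the proteasome lid genes Psmd8 by 0.70 (adjusted p = 0.0226) and Psmd14 by 0.81 (adjusted p = 0.0261). Zfp612, a zinc finger gene 20 places from Nfat5, rose by 0.65 in HSC (adjusted p = 0.0494). The MPP means of Zfp612 (4.67 in KO, 4.81 in WT) lay under 4.96, the mean signal below which genes were left out. Zfp612 was thus tested only through its higher HSC signal (5.36 in KO, 5.43 in WT), and differences of such weak signals are compressed. With the mouse as a block the calls of Psmd8 (adjusted p = 0.0893), Psmd14 (0.0981) and Zfp612 (0.126) were lost. Leaving out a single mouse ended the call of Gclc for 4 of the 6 mice (2, 3, 12 and 64), of Psmd8 for 5 (all but 12), of Psmd14 for 4 (2, 11, 12 and 64) and of Zfp612 for all 6, with adjusted p under any setting of up to 0.0894, 0.115, 0.142 and 0.175 in the same order.

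Likeness to Nfat5 and to Cyb5b was measured as Pearson's r over the 12 arrays, which share mice and groups, so that r is a description and not evidence of a relation. Nfat5 and Cyb5b had an r of -0.83, at place 9 from the lowest among 14619 genes set against Nfat5, with a range of -0.89 to -0.76 over the 6 fits that each left out a mouse. The other neighbours had r between -0.42 (Nob1) and 0.10 (Wwp2) with Nfat5. Highest with Nfat5 stood Kcnj13, a potassium channel gene (0.92), Smc5, a subunit of the SMC5/6 repair complex (0.91), Efcc1 (0.86), the olfactory receptor gene Olfr923 (0.83) and Ccdc62 (0.83). Lowest stood Tspo, a protein of the mitochondrial outer membrane (-0.88), the signal peptidase subunit gene Spcs3 (-0.87), the ribosomal protein gene Rps9 (-0.86), Ccdc84 (-0.85) and Ccdc22 (-0.85). Highest with Cyb5b stood the actinin gene Actn4 (0.91), the elongation factor genes Supt4b (0.90) and Supt4a (0.90), a pair of near-identical copies, Zfp775 (0.89) and Pcdhb9 (0.87). Lowest stood Cox15, which encodes an enzyme of haem A synthesis (-0.89), Lrrc6 (-0.86), Smc5 (-0.86), Ccdc173 (-0.84) and Atp6v0b, a subunit of the vacuolar proton pump (-0.84). Smc5 alone stood in both sets, high with Nfat5 and low with Cyb5b. It read 9.66, 9.77 and 9.98 in KO HSC and 10.16, 10.14 and 10.29 in WT HSC, without overlap, as for 8.87% of all genes. In MPP it read 9.26, 9.70 and 9.46 in KO and 9.61, 10.04 and 9.82 in WT, with overlap.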

How the data were processed

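NuGEN kits were used to amplify 300 pg of RNA per sort, per the labels' protocols. Each deposited value is the log2 intensity of a probe set. The submitters' processing notes name RMA and limma, with no version stated in the sources used here. RMA sets the probe signals of all arrays to 1 distribution before they are combined into probe set values. The medians of the deposited values still differed between arrays (5.81 to 5.91). RMA also compresses differences of weak genes.

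Of 22142 probe sets 19527 had 1 gene symbol, 0 several and 2615 none. Symbols were updated by gene ID (19527 matched). For 33 genes the probe set with the highest mean was kept. The 4874 genes in the lowest 25% of mean signal (under 4.96) were left out. The 4 groups were fitted together by limma 3.58.1 (statmod 1.5.0, R 4.3.3), with two-sided moderated tests, Benjamini-Hochberg adjustment over 14620 genes and a threshold of 0.05. For mouse means, 3 mice were compared with 3. Single values were compared by exact permutation. The fit was tested on simulated data.

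The labels name the mouse of each array, which pairs the populations. Deviations of the arrays of a mouse from their group means correlated with r of 0.032 to 0.091 across genes. For 2 of the 6 mice the best match was the array of the same mouse. The main fit had no block, and a mouse block was among the alternatives, beside other filters, probe set means, a second quantile normalization, other variance models, array weights, fewer arrays and each mouse left out. Members and lists were chosen with earlier results of these data known. By rule the text names every member, the highest and lowest gene of each list for KO against WT in each population, and the 5 most and least alike genes of Nfat5 and Cyb5b.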

Additional observations from a re-analysis of the deposited data

How the results depend on the processing

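Among 35 differences (7 genes in 5 comparisons) under up to 15 other settings, 447 values kept their direction and stayed on their side of the threshold and 31 changed sign without passing. The signs of Nfat5 and Cyb5b held for KO against WT in HSC, in MPP and over mouse means in all of these settings. Under the second quantile normalization HSC against MPP stood at 0.031 for Wwp2 and 0.013 for Psmd7. With array weights Nqo1 stood at -0.031 over mouse means and Txnrd1 at 0.066 in HSC. With a mouse left out, or only the KO mouse 2 HSC array, genotype differences in HSC ranged from -0.065 to 0.26 for Wwp2, -0.042 to 0.40 for Psmd7, -0.37 to 0.17 for Nob1, -0.23 to 0.056 for Nqo1, -0.044 to 0.68 for Terf2, -0.32 to 0.18 for Txnrd1, -0.11 to 0.36 for Nfatc1, -0.35 to 0.13 for Nfatc2, -0.84 to 0.00062 for Smurf2 and -0.17 to 1.20 for Psmd13. In MPP they ranged from -0.066 to 0.22 for Nqo1, -0.063 to 0.23 for Terf2, -0.049 to 0.39 for Mtarc2, -0.83 to 0.015 for Smurf2, -0.22 to 0.75 for Smurf1, -0.20 to 0.58 for Acd, -0.040 to 1.03 for Pno1, -0.031 to 0.33 for Hspa1b and -1.14 to 0.11 for Gclm. Over mouse means they ranged from -0.091 to 0.11 for Nqo1, -0.30 to 0.070 for Wwp2 and -0.41 to 0.0034 for Gclm. Interactions ranged from -0.34 to 0.28 for Nfat5, -0.27 to 0.67 for Terf2, -0.22 to 0.19 for Psmd7 and -0.45 to 0.12 for Nqo1, and HSC against MPP from -0.18 to 0.078 for Wwp2, -0.17 to 0.022 for Psmd7, -0.066 to 0.22 for Nqo1 and -0.0038 to 0.47 for Terf2. The cause of these changes was not tested. Genes that passed for KO against WT in HSC numbered 0 to 1 when arrays were left out. The 1 gene was Epn1 without mouse 11, named for having passed (2.73, adjusted p = 0.0324 by limma). For HSC against MPP 380 to 627 passed with arrays left out, where fewer samples were fitted. With the mouse as a replicate block 546 genes passed for HSC against MPP and 0 in the other comparisons, and it changed no call of the 7 genes.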
